A study of Homo sapiens with 6 samples.

Results

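The 10 genes described here encode the enzymes that build purine nucleotides from small precursors, and they were taken by symbol from the 21857 genes of the deposited tables: PPAT, GART, PFAS, PAICS, ADSL, ATIC, IMPDH1, IMPDH2, GMPS and ADSS2. All 10 were found and all 10 passed the filter on low counts, with between 439 and 14473 reads per gene in any library. After treatment with FKA, 9 of the 10 fell and 1, IMPDH1, rose. The falls ranged from a log2 fold change of -2.22 for PAICS to -0.72 for GMPS.

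Purine synthesis starts from phosphoribosyl pyrophosphate (PRPP), an activated ribose phosphate, on which the ring is assembled step by step until inosine monophosphate (IMP) is complete. The nitrogen and carbon atoms come from glutamine, glycine, aspartate, bicarbonate and formyl groups carried by folate. IMP then feeds one branch to guanosine monophosphate (GMP) and another to adenosine monophosphate (AMP). Dividing leukaemic cells need both for DNA and RNA, and thiopurines and IMP dehydrogenase inhibitors act on this metabolism.

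RNA was sequenced from MV4;11 cells, an established human acute myeloid leukaemia line whose genotype label gives FLT3-ITD and MLL-AF4. The FKA group had 3 libraries from cells given 10 µg/ml FKA, the kava chalcone flavokawain A, for 48 h. The control group had 3 libraries collected at 48 h without FKA, and all 6 libraries come from this 1 line with the same genotype label. The labels put 1 library of each group in each of 3 batches, and they do not say whether libraries of a group came from separate cultures, so p-values measure only the spread between these libraries. Totals ran from 29971171 to 33183376 counts per FKA library and from 33759185 to 36362421 counts per control library, and between 17457 and 18409 genes were detected in each.

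Much of the transcriptome moved in this comparison, which sets the scale for the enzymes. Of 13531 genes tested with edgeR's quasi-likelihood test at a Benjamini-Hochberg adjusted p of 0.05, 4131 (30.5%) were lower and 3959 (29.3%) were higher in FKA, 59.8% in all. At least a 2-fold fall was called for 13.7% of genes tested. The median log2 fold change was -1.21 over the 10 enzymes and 0.01 over all genes tested. The values are shares of each library's reads, so fewer cells of a type and less RNA per cell cannot be told apart.

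Markers of fibroblasts differed between the FKA libraries. Their summed level, over 10 genes, was 10.1, 62.0 and 62.3 CPM in FKA replicates 1, 2 and 3, against 53.2, 33.5 and 19.4 CPM in the controls. Of 6 tested genes of this list 1, COL6A3, fell and 5 were not called. The median log2 fold change of the 6 was 2.31 and the highest was 2.83. COL1A1 was at 0.342, 13.0 and 12.9 CPM in FKA libraries and at 2.41, 2.29 and 0.119 CPM in control libraries. PDGFRB was at 0, 0.0313 and 0.0288 CPM with FKA and at most 0.0559 CPM in any control. Results without FKA replicates 2 and 3 are given after those with all libraries.

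Levels below are CPM, read counts scaled to a common library size after TMM scaling, given for replicates 1, 2 and 3 in that order. PPAT transfers the amide of glutamine to PRPP, the committed and feedback-inhibited first step. PPAT stood at 27.9, 24.2 and 32.0 CPM in the FKA libraries, against 90.8, 81.8 and 83.2 CPM in the control libraries. All FKA libraries lay far below all control libraries, at 32.9% of the control mean. The log2 fold change was -1.60 (SE 0.117, adjusted p = 1.21e-05, edgeR).

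PAICS carries the carboxylation and the aspartate addition in the middle of the pathway, and its gene lies head to head with PPAT. PAICS reached 75.3, 46.4 and 88.0 CPM with FKA, against 368, 293 and 319 CPM without it. It had the largest fall of the 10, to 21.4% of control, with a log2 fold change of -2.22 (SE 0.215, adjusted p = 4.94e-05, edgeR). The groups were separated by a wide gap, and FKA replicate 2 was the lowest library.

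In RefSeq on GRCh38.p14 the start sites of PPAT on the minus strand and of 1 of the 3 PAICS windows on the plus strand are 137 bases apart. The promoter sequences of PPAT and ATIC are shown because both hold the E-box letters CACGTG, in capitals, and that of IMPDH1 because it was the enzyme that rose. IMPDH1 holds no E-box, and neither do GART, PFAS, GMPS and ADSS2, which fell. Each is the 250 bases before the start site, read 5′ to 3′ on the gene's strand: chr4:56435616-56435865 on the minus strand for PPAT, chr2:215311809-215312058 on the plus strand for ATIC and chr7:128409983-128410232 on the minus strand for IMPDH1.
PPAT: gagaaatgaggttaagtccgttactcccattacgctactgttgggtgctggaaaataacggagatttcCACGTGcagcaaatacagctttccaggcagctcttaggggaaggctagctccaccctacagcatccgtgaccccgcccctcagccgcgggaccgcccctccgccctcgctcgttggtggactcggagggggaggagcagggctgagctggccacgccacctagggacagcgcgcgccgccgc
ATIC: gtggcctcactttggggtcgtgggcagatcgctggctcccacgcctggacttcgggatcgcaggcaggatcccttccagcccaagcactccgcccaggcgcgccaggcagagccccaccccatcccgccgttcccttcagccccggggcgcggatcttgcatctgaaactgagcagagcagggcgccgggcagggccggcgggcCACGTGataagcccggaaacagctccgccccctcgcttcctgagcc
IMPDH1: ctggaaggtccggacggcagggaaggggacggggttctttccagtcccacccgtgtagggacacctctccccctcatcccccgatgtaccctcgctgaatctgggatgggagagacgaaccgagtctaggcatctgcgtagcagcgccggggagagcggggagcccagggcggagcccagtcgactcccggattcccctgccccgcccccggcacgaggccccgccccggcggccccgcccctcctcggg

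The E-box of the PPAT sequence begins 182 bases upstream of the PPAT start, and the same letters lie 41 bases downstream of that PAICS start. ATIC has an E-box 46 bases upstream of its start and another 30 bases downstream. CACGTG, a palindrome recognised by MYC with MAX and by other factors of that class, was searched on both strands of windows from 250 bases before to 50 bases after each RefSeq start. It was present in 3 of the 8 enzymes matched (all but ADSL and IMPDH2), namely PPAT, PAICS and ATIC, of which PPAT and PAICS share the same site, and in 8.77% of 27305 genes with such a window. By window these were 3 of 13 for the enzymes and 7.26% of 35116 overall. The GC box GGGCGG was in 8 of 8 enzymes and in 48.3% of genes. The CCAAT box, CCAAT, was in 1 of 8, GART, and in 39.7% of genes. TGATGNAA, the C/EBP-ATF response element, was in 0 of 8 and in 4.46% of genes, and the palindromic NRF1 site was in 0 of 8 and in 1.52%. No motif of the 5 contains the letters of another. These matches describe letters in a window and no binding was measured.

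**Figure D1:**
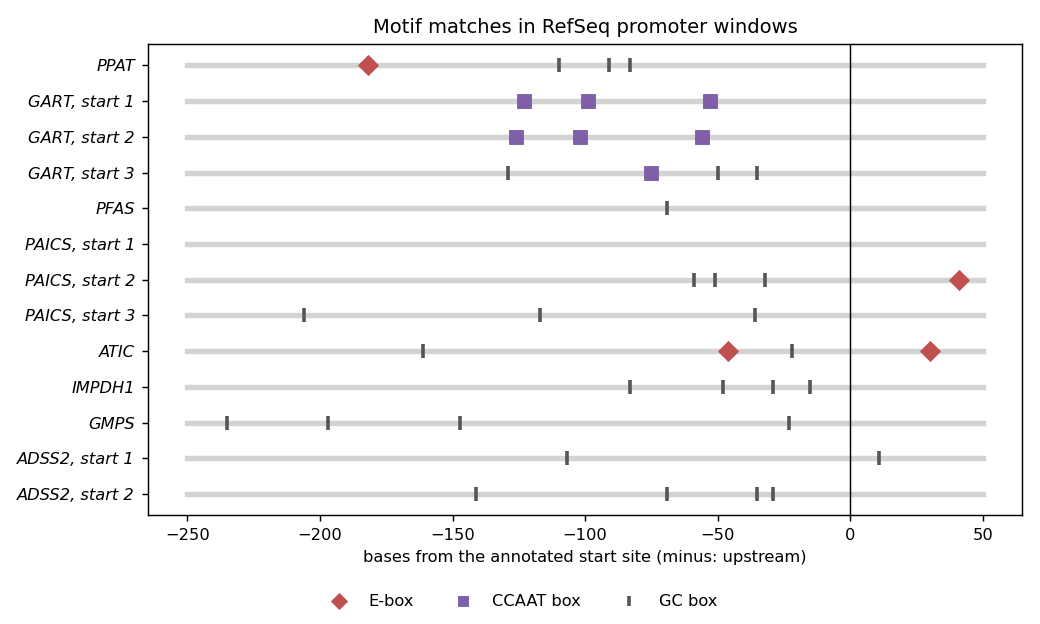
Positions of E-box, CCAAT box and GC box matches in the 13 RefSeq promoter windows of the enzymes, in bases from the start site (negative upstream), with each window as a grey bar. E-boxes lie in 3 windows, of PPAT, PAICS and ATIC, and GC boxes in 10 of 13.

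The remaining steps of IMP assembly fell as well. GART is a trifunctional protein that adds glycine and the first formyl group and closes the imidazole ring. GART measured 90.2, 65.8 and 95.9 CPM in FKA libraries, against 206, 182 and 187 CPM in control libraries. All control libraries were above all FKA libraries, and the level was 43.8% of control. The log2 fold change was -1.19 (SE 0.139, adjusted p = 0.000129, edgeR).

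PFAS, the FGAM synthase, adds nitrogen from a further glutamine. PFAS gave 22.6, 13.7 and 24.7 CPM under FKA, against 115, 75.4 and 79.4 CPM in controls. Control replicate 1 stood above the other controls, and the lowest control still exceeded the highest FKA library. Its log2 fold change was -2.14 (SE 0.236, adjusted p = 9.53e-05, edgeR), a level at 22.6% of control.

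ADSL cleaves fumarate from the intermediate on the way to IMP and again on the way to AMP. ADSL counted 59.9, 43.9 and 62.2 CPM in FKA-treated cells, against 117, 86.9 and 105 CPM in untreated cells. The gap between groups was smaller than for PPAT or PAICS and there was no overlap. The level was 53.7% of control, a log2 fold change of -0.90 (SE 0.154, adjusted p = 0.00105, edgeR).

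ATIC carries the last formyl transfer and closes the ring to IMP. ATIC had 48.6, 32.4 and 48.8 CPM in FKA libraries, against 174, 130.2 and 143 CPM in control libraries. Even the lowest control library was well above every FKA library. The level was 29.0% of control, with a log2 fold change of -1.79 (SE 0.174, adjusted p = 5.12e-05, edgeR).

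**Figure D2:**
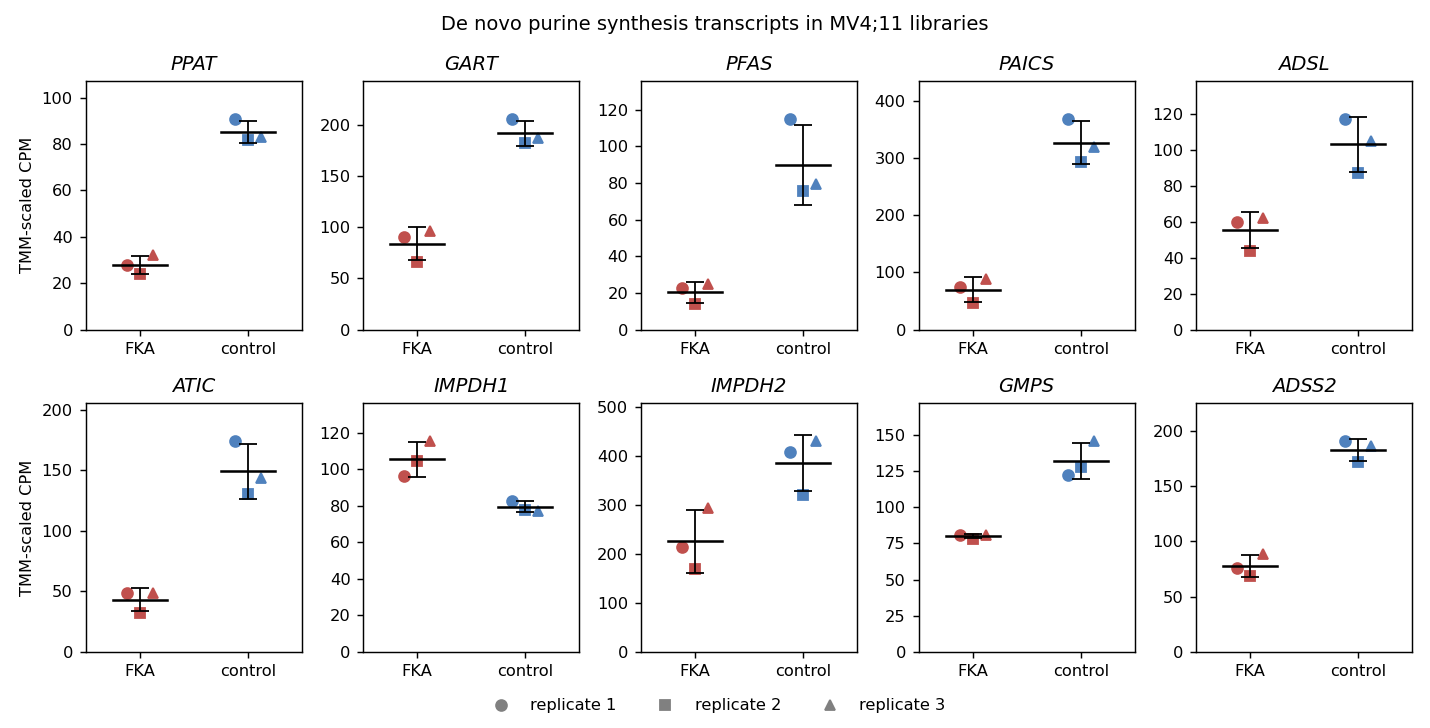
TMM-scaled CPM of each enzyme in each library on linear axes from 0, FKA left of control, with symbols for replicates, and group means and SD as bars (n = 3 each). For 9 enzymes every FKA library lies below every control library, and for IMPDH1 the FKA libraries, between 96.2 and 115 CPM, lie above the controls.

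Past IMP, the branch to GMP held the enzyme that rose. IMP dehydrogenase makes xanthosine monophosphate, the rate-limiting step towards GMP, and is encoded by a pair of closely related genes, of which IMPDH2 is known as the form raised in proliferating cells. IMPDH1 reached 96.2, 105 and 115 CPM with FKA, against 82.9, 77.9 and 77.3 CPM in control libraries. The groups did not overlap, although FKA replicate 1 was closer to the controls than the other two. IMPDH1 rose to 133% of control, a log2 fold change of 0.41 (SE 0.0921, adjusted p = 0.0044, edgeR). With FKA replicates 2 and 3 left out the call was lost, at 0.27 (adjusted p = 0.187, edgeR), and over all other alternatives it held.

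IMPDH2 moved the other way. IMPDH2 stood at 214, 169 and 294 CPM in FKA libraries, against 408, 321 and 431 CPM in control libraries. Its groups came close, since FKA replicate 3 was just under control replicate 2, and its spread was wide in both. The log2 fold change was -0.78 (SE 0.196, adjusted p = 0.00781, edgeR), to 58.3% of control.

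GMPS aminates xanthosine monophosphate to GMP. GMPS gave 80.8, 78.3 and 81.1 CPM in FKA libraries, against 122, 128 and 146 CPM in control libraries. The FKA libraries were close to each other and below all controls. With a log2 fold change of -0.72 (SE 0.0900, adjusted p = 0.000182, edgeR), to 60.7% of control, GMPS had the smallest fall of the 9.

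ADSS2 adds aspartate to IMP, the first step of the branch to AMP, which ADSL completes. ADSS2 measured 75.5, 68.8 and 88.4 CPM with FKA, against 191, 172 and 186 CPM without it. Each group was tight relative to the distance between them. The log2 fold change was -1.24 (SE 0.108, adjusted p = 2.97e-05, edgeR), to 42.4% of control.

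Across the set, 9 of 10 enzymes were called lower, against 30.5% of all genes tested, and 1 was called higher, against 29.3%. A fall of at least 2-fold was called for 6 of the 10 (PPAT, GART, PFAS, PAICS, ATIC and ADSS2), against 13.7% of genes. All FKA libraries were below all control libraries for 9 of 10, against 33.6% of genes, and above them for 1, against 33.7%. The groups were thus separate for all 10, against 67.3% of genes in either direction. The 5 enzymes that act only between PRPP and IMP had log2 fold changes between -2.22 and -1.19, while IMPDH2 and GMPS, on the GMP branch, had -0.78 and -0.72. ADSS2, on the AMP branch, had -1.24, ADSL, which acts before and after IMP, had -0.90, and IMPDH1 had 0.41. No test of the difference between these steps was made.

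**Figure D3:**
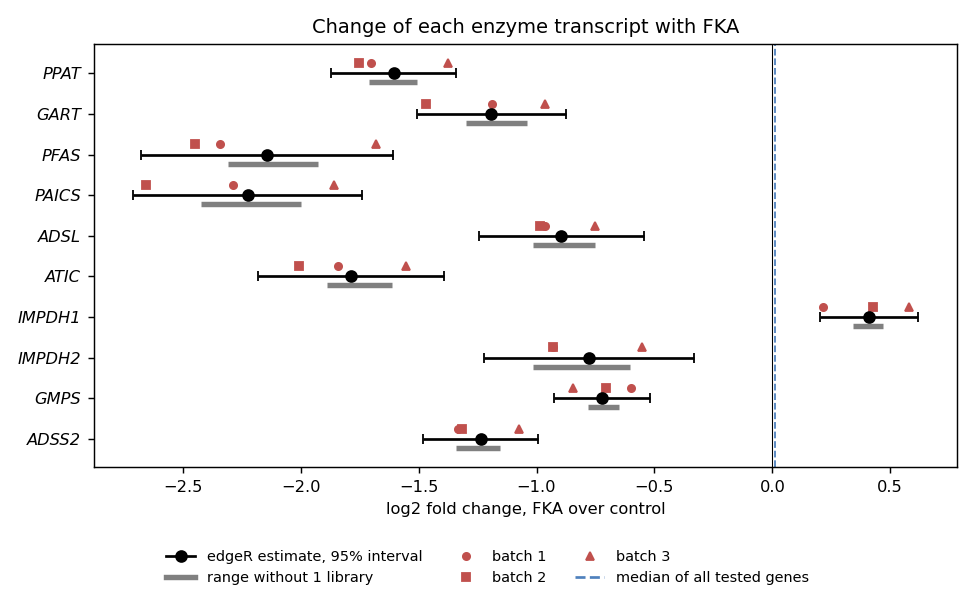
Fitted log2 fold change of FKA over control for each enzyme, in pathway order, with 95% intervals, the log2 differences within each batch as red symbols, the range with 1 library left out as a grey bar and the median of all tested genes as a dashed line. PAICS has the largest fall, -2.22, and IMPDH1, at 0.41, is the enzyme above 0.

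The order of the libraries was shared among the enzymes. All 9 that fell were lowest in FKA replicate 2 and had their highest FKA level in replicate 3. Within batches, 8 of the 9 had their smallest fall in batch 3, with GMPS as the exception: its log2 differences were -0.60, -0.71 and -0.84 in batches 1, 2 and 3. For PAICS the same differences were -2.29, -2.66 and -1.86, and for IMPDH1 they were 0.21, 0.43 and 0.58. Every enzyme had the same sign in all 3 batches, which follows from the groups not overlapping. Among the controls, 8 of the 10 were highest in replicate 1. The share of all genes with these orders was not counted, so they are not shown to be particular to the enzymes.

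To compare enzymes with each other, the deposited FPKM, which divides by gene length, was used. The lengths implied by these values ran from 2075 bases for IMPDH2 to 8990 for GMPS, and the order of enzymes depends on them. In FKA libraries IMPDH2 led at 115 ± 31.2 FPKM, then IMPDH1 at 38.8 ± 3.42 and ADSS2 at 21.1 ± 2.52 FPKM (SD, n = 3 each). GART at 20.0 ± 3.64, ATIC at 16.6 ± 3.50, ADSL at 11.7 ± 2.02, PAICS at 9.60 ± 2.85 and GMPS at 9.41 ± 0.0921 FPKM followed, and neighbours from ADSS2 to GMPS overlapped. PPAT at 8.03 ± 1.04 and PFAS at 3.64 ± 1.01 FPKM came last, each with all FKA libraries below those of the enzyme before it. In control libraries the order was IMPDH2 at 176 ± 21.1, ATIC at 51.3 ± 6.28, ADSS2 at 44.5 ± 0.898, GART at 40.9 ± 1.65, PAICS at 40.2 ± 3.47 and IMPDH1 at 26.2 ± 0.857 FPKM. PPAT at 21.9 ± 0.804, ADSL at 19.5 ± 2.25, PFAS at 14.4 ± 3.10 and GMPS at 13.9 ± 1.31 FPKM closed it. Overlapping neighbours among controls were GART and PAICS, PPAT and ADSL, ADSL and PFAS, and PFAS and GMPS. IMPDH1 thus stood at rank 2 in FKA libraries and at rank 6 in control libraries. Summed FPKM of the 10 enzymes was 249, 208 and 304 in FKA libraries, against 473, 413 and 460 in control libraries, a log2 ratio of the means of -0.82.

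IMPDH2, which fell, and IMPDH1, which rose, were also set against each other within each library. The ratio of IMPDH2 to IMPDH1 in FPKM was 3.07, 2.22 and 3.52 in FKA libraries, against 6.80, 5.70 and 7.69 in control libraries. The groups did not overlap, and the difference in mean log2 ratio was -1.21, with -1.14, -1.36 and -1.13 within batches 1, 2 and 3. Since IMPDH2 lay below and IMPDH1 above all controls in every FKA library, this separation follows from the single genes and was not tested further. As a share of the summed IMPDH FPKM, IMPDH2 made 75.5%, 69.0% and 77.9% with FKA, against 87.2%, 85.1% and 88.5% without it. The sum itself was 153 ± 33.4 FPKM in FKA libraries and 202 ± 20.5 FPKM in control libraries (SD, n = 3 each).

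PAICS and PPAT, the head-to-head pair shown above, were compared in the same way. Their FPKM ratio, PAICS over PPAT, was 1.30, 0.919 and 1.32 in FKA libraries, against 1.94, 1.72 and 1.84 in control libraries. The ratio was lower in every FKA library, with a difference in mean log2 ratio of -0.66 and exact two-sided permutation p = 0.1, the smallest that 3 against 3 libraries allow. The within-batch log2 differences were -0.59, -0.90 and -0.48.

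**Figure D4:**
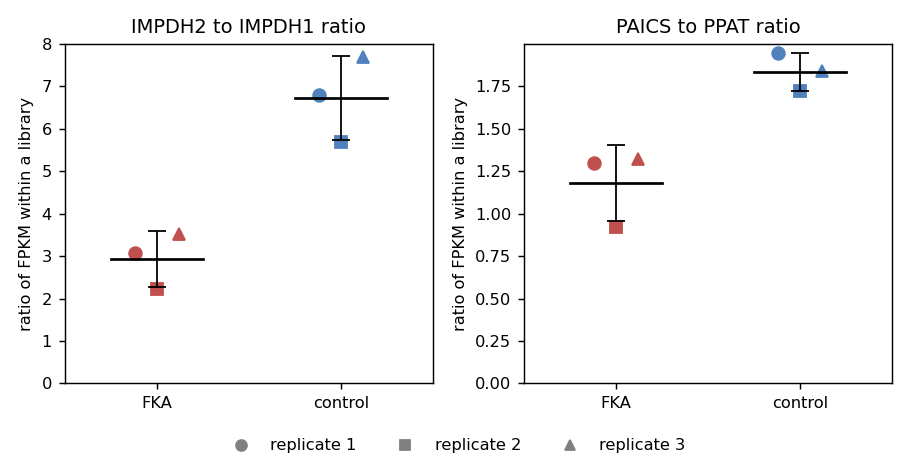
FPKM ratios IMPDH2 over IMPDH1 and PAICS over PPAT in each library, FKA left of control, with group means and SD as bars (n = 3 each). The IMPDH2 over IMPDH1 ratio lies between 2.22 and 3.52 in FKA libraries and between 5.70 and 7.69 in control libraries.

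Of the genes that overlap an enzyme gene in GENCODE 29, SON, opposite GART, had a log2 fold change of -0.04 (adjusted p = 0.691, edgeR). CTC1, opposite PFAS, and SGSM3, on the strand of ADSL, had log2 fold changes of 0.94 and 0.86, both called higher, while PFAS and ADSL fell. The use of strand in counting is not given in the sources used here, so reads in the overlaps cannot be told apart. By symbol, GENCODE also names 17 pseudogene copies of 4 of the enzymes (7 for IMPDH1, 7 for PAICS, 2 for PPAT and 1 for GMPS). None of them was among the genes counted. How reads that match both copy and gene were assigned is not given in the sources used here, and the values of these 4 enzymes are uncertain to that extent.

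Of 42 tested genes around the pathway, 27 were called lower and 8 higher, beside 30.5% lower and 29.3% higher over all genes tested; among the breakdown genes as many rose as fell. The lists are small, and no test against other genes was made. PRPP is made by the PRPP synthetases, and 3 of 4 tested genes of this list fell while none rose, with a median log2 fold change of -0.59. PRPS2 averaged 10.1 ± 0.559 CPM in FKA libraries and 27.7 ± 3.58 CPM in control libraries, a log2 fold change of -1.46 (adjusted p = 3.87e-05, edgeR). PRPS1, the other widely expressed synthetase, fell by 0.72 and its associated protein PRPSAP1 by 0.46 on the log2 scale. The PRPSAP1 call was lost in the 3 limma fits of FPKM.

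Formyl groups for GART and ATIC come from serine through folate enzymes. Of 8 tested genes of this supply, 7 fell and 1 rose, with a median log2 fold change of -1.44. The gene that rose was not tested in the limma fit of genes with a mean FPKM of at least 1, since its mean was lower. MTHFD1, the cytosolic trifunctional enzyme that makes formyl-tetrahydrofolate, averaged 37.1 ± 10.9 CPM in FKA libraries and 143 ± 20.5 CPM in control libraries, a log2 fold change of -1.95 (adjusted p = 9.11e-05, edgeR). SHMT2, the mitochondrial serine hydroxymethyltransferase and the most abundant of the list, averaged 229 ± 62.3 CPM with FKA and 604 ± 41.1 CPM without it, a log2 fold change of -1.40 (adjusted p = 0.000184, edgeR). MTHFD1L, which releases formate in mitochondria, fell by 1.85 on the log2 scale.

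Salvage recycles free bases and nucleosides. Of its 5 genes 4 fell and 1 rose, with a median log2 fold change of -0.71. HPRT1, which returns hypoxanthine and guanine to nucleotides, averaged 34.1 ± 0.619 CPM in FKA libraries and 69.3 ± 10.4 CPM in control libraries, a log2 fold change of -1.02 (adjusted p = 0.000121, edgeR). DCK, the deoxycytidine kinase that also phosphorylates purine deoxynucleosides and activates cytarabine, fell by 1.49 and ADK, the adenosine kinase, by 0.71 on the log2 scale. APRT, for adenine, had a log2 fold change of -0.34 (adjusted p = 0.0286, edgeR), which lost its call in 9 of 16 alternatives. DGUOK, the mitochondrial deoxyguanosine kinase, had 0.32 (adjusted p = 0.0163, edgeR), lost without the filter and without FKA replicate 2.

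Among 9 tested genes that interconvert purine nucleotides, 5 fell and 3 rose (median log2 fold change -0.36). The count of falls was 3 with library totals, without control replicate 3 or without FKA replicate 1, 2 without FKA replicate 3, and 2 or 3 in limma fits of FPKM. ITPA, which clears inosine triphosphate, had a log2 fold change of -0.61. The guanylate kinase GUK1 rose by 0.64 and the AMP deaminase AMPD3 by 0.84 on the log2 scale.

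Of 7 tested genes of breakdown 3 rose and 3 fell (median -0.34), and 1 of 7 fell with library totals or in limma fits of FPKM. ADA2, a secreted adenosine deaminase made by monocytes and macrophages, averaged 51.7 ± 10.5 CPM in FKA libraries and 13.3 ± 1.34 CPM in control libraries, a log2 fold change of 1.96 (adjusted p = 2.16e-05, edgeR). The nucleotidase gene NT5C3B rose by 0.59 and NT5C fell by 0.69 on the log2 scale. PNP, the purine nucleoside phosphorylase, had -0.48 (adjusted p = 0.0217, edgeR), and this call was lost with library totals, in limma fits, without control replicate 1 and without FKA replicate 2.

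Carriers move nucleosides and bases across membranes. Of 4 tested, 3 fell and none rose, with a median log2 fold change of -1.28. SLC29A1, the equilibrative nucleoside transporter that takes up cytarabine, averaged 4.62 ± 0.759 CPM in FKA libraries and 46.4 ± 9.06 CPM in control libraries, a log2 fold change of -3.33 (adjusted p = 4.46e-06, edgeR). SLC43A3, a carrier of purine bases, averaged 43.0 ± 1.72 CPM with FKA and 180.4 ± 3.83 CPM without it, a log2 fold change of -2.07 (adjusted p = 9.28e-07, edgeR). SLC29A2 had -0.49 (adjusted p = 0.011, edgeR), which was lost in 2 of the limma fits of FPKM.

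**Figure D5:**
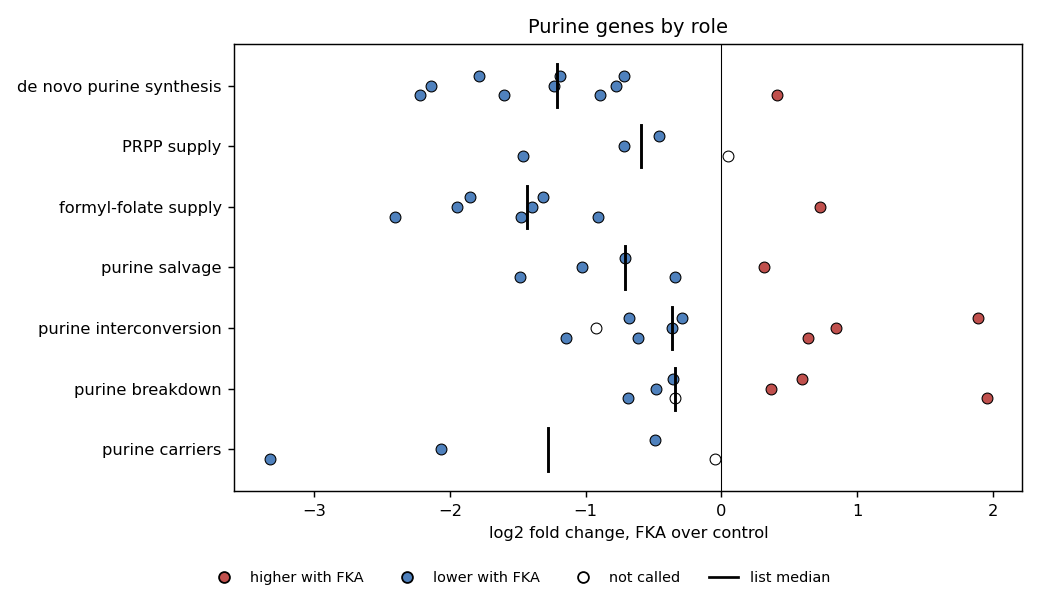
Log2 fold change of FKA over control for every tested gene of the de novo list and of the companion lists, coloured by call, with each list's median as a vertical line. The de novo list has a median of -1.21, folate supply -1.44 and carriers -1.28.

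Among 5 genes known to regulate purine synthesis, 2 fell and 3 were not called. MYC, whose protein activates many of these enzyme genes, had 98.3, 37.6 and 93.6 CPM in FKA libraries, against 780, 562 and 542 CPM in control libraries. Its lowest library was FKA replicate 2 and its highest control replicate 1. Its log2 fold change was -3.04 (adjusted p = 0.0001, edgeR). E2F1 averaged 2.13 CPM with FKA and 46.5 CPM without it, a log2 fold change of -4.44 (adjusted p = 1.38e-06, edgeR). By replicate, E2F1 had 1.71, 2.06 and 2.62 CPM with FKA and 40.3, 45.4 and 53.8 CPM without it. E2F1 was lowest in FKA replicate 1 and highest in control replicate 3. The part of MYC or E2F1 in the falls of the enzymes was not tested.

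The tested genes outside the set with the profile nearest to the enzymes' mean were named by root mean square distance of log2 CPM over the 6 libraries, among 8940 genes. They were DCTPP1 (0.0376), PRMT5 (0.0546), EBPL (0.0603), GMDS (0.0611) and ABCB10 (0.0641), with log2 fold changes between -1.29 and -1.17. DCTPP1 hydrolyses noncanonical deoxycytidine triphosphates, PRMT5 methylates arginine, and GMDS converts GDP-mannose. Among the enzymes GART was nearest to the mean profile, at 0.0475, and IMPDH1 farthest, at 1.17.

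Other genes moved with the treatment. The proliferation list (MKI67, TOP2A, PCNA, CCNB1 and MCM2) fell in 5 of 5 genes, with a summed level of 131, 169 and 145 CPM in FKA libraries and 867, 1847 and 2058 CPM in control libraries. Control replicate 1 was the lowest control in this sum. MKI67, TOP2A and CCNB1 were far lower in it than in the other controls. The remaining genes of the list did not share this order. In control replicates 1, 2 and 3 PCNA had 242, 243 and 281 CPM, and MCM2 had 163, 142 and 186 CPM. Of 10 myeloid genes, 3 rose (CSF3R, CSF1R and ITGAM), 1 fell (MPO) and 6 were not called, and their summed level was 2184 to 2254 CPM with FKA and 1957 to 2083 CPM without it. The part of either change in the enzymes' values was not tested.

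COL6A3, a collagen gene, fell with FKA, while the median log2 fold change of the 6 tested fibroblast genes was 2.31. FKA replicates 2 and 3 had the highest COL1A1 levels and the highest summed fibroblast marker levels of all libraries. With both replicates left out, the 9 enzymes that fell had log2 fold changes from -2.13 for PAICS to -0.72 for GMPS. IMPDH1 was the enzyme that lost its call. The remaining FKA library had an IMPDH2 to IMPDH1 ratio of 3.07 and a PAICS to PPAT ratio of 1.30, both below every control library. Fewer companion genes were then called in either direction than with all libraries. The interconversion, breakdown, folate supply and salvage lists were among those that lost calls. Calls over all genes also became fewer in both directions, and fewer samples were fitted. Whether the lost companion calls depended on the fibroblast marker levels of the replicates left out was not tested.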

How the data were processed

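RNA of MV4;11 cells was measured in 6 libraries, 3 given FKA and 3 controls, grouped by their titles. The authors deposited whole-number read counts per gene and FPKM values for 21857 genes. Each deposited FPKM could be rebuilt from the count, its column total and 1 gene length (largest relative deviation 6.9e-07). The submitters' processing notes name GRCm38 and mm10, which are mouse builds, while 20649 of the 21857 symbols (94.5%) matched human RefSeq genes. The aligner, the counter and strandedness were not given in the sources used here. No coordinate of the tables is printed, and promoter sequences are RefSeq's, matched by symbol.

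The counts went into edgeR 4.0.16 (R 4.3.3): filterByExpr (13531 genes), TMM scaling and the quasi-likelihood F test without the batch, with Benjamini-Hochberg adjustment over all genes tested and a threshold of 0.05. Variation between the libraries of a group beyond counting noise came to 15.4% (edgeR's coefficient of variation). Levels are TMM-scaled CPM, computed from the counts, and errors are SD over 3 libraries unless given as SE. Totals of 29971171 to 36362421 counts per library give each enzyme at least 439 reads, so replicate spread rather than counting limits the precision. Between replicates, chi-square over its degrees of freedom was 21.7 to 66.3, so none was a copy of another. Within-batch differences are of log2(CPM + 0.1). Alternatives used DESeq2 1.42.0, limma 3.58.1 on log2(FPKM + 1) or log2(FPKM + 0.1), other scalings and filters, the batch as a block, and libraries left out. The PAICS to PPAT ratio was tested by exact permutation over libraries. The edgeR test was checked on simulated counts with known fold changes.

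The batch label equals the replicate number and so pairs 1 library of each group by the labels. The correlation of paired deviations was 0.05, 0.34 and -0.08 in batches 1, 2 and 3.

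The enzymes and the gene lists were chosen with earlier results of these data known. All 10 enzymes are named. Of each companion list, every called gene is named where 4 or fewer were called, otherwise the 4 with the lowest adjusted p, with the most abundant added; some genes that this rule names are not reported here. The 5 genes of nearest profile, among those with a mean of at least 10 CPM, are named too. Members of lists of other cell types and overlapping genes were named after their values were seen.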

Additional observations from a re-analysis of the deposited data

How the results depend on the processing

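Over 17 other settings, 169 of 170 values of single enzymes kept their direction and their call. The exception was IMPDH1 with FKA replicates 2 and 3 left out together, where 0 enzymes were called higher and 9 lower, the lone FKA library being assumed to vary like the controls. In that setting 2599 of all genes were called lower and 2020 higher, and 2 companion genes were called higher; fewer samples were fitted. Leaving out 1 library at a time kept 9 enzymes lower and 1 higher, while 3711 to 4212 of all genes were called lower, 3365 to 3981 higher, and 23 to 26 companion genes lower and 6 to 8 higher. The IMPDH2 to IMPDH1 log2 difference then ranged from -1.35 to -1.02, that of PAICS to PPAT from -0.75 to -0.49, and that of summed FPKM from -0.97 to -0.70. Summed TMM-scaled CPM in place of FPKM gave -1.13; the sums differ in both the division by length and the scaling. The highest adjusted p of an enzyme with at least 2 libraries per group was 0.0304, edgeR, for IMPDH2 without FKA replicate 1.

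With the replicate block, which pairs the libraries by batch, 9 enzymes were lower and 1 higher, 4223 of all genes lower and 4066 higher, and 28 companion genes lower and 8 higher; the ratios kept their values, and that of PAICS to PPAT had an exact paired p = 0.25, the smallest 3 pairs allow. The block changed no call of an enzyme. DESeq2 called 4377 genes lower and 3979 higher. Scaling by library totals raised the median of all genes by 0.16 and the share of calls that were higher to 60.3%, against 48.9% with TMM; the enzymes' median was -1.05 there.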
